A study of Arabidopsis thaliana with 20 samples.

Results

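Long transposable elements (TEs), annotated TEs of 2000 bases or more, were followed in RNA of Arabidopsis thaliana mutants of POL2A, SUVH2 and SUVH9. They were chosen by identifier and listed length, with no measured value: 2455 of the 31189 TEs and of the 58844 features counted in each library. They made up 7.87% of the TEs and 48.3% of the annotated TE bases. Their median length was 3611 bases, the middle 50% spanned 2512 to 5267.5 bases, and the longest, AT1TE51040, had 31019 bases. By the chromosome digit of the identifier there were 479 on chromosome 1, 505 on chromosome 2, 524 on chromosome 3, 428 on chromosome 4 and 519 on chromosome 5. Of the 78 members less than 50 bases above the limit 61.5% had a count in at least 1 library, with a mean of 0.0221 CPM (counts per 1e+06 counts of a library). Of the 61 TEs up to 50 bases below it 42.6% had one, with a mean of 0.418 CPM and 1 element at 11.8 CPM.

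TEs are mobile or formerly mobile sequences, and the longer ones in plants are often retrotransposons that keep coding sequence and can be transcribed when silencing is lost. Plant cells keep them silent with DNA methylation and methylated histone H3. In RNA-directed DNA methylation, small RNAs guide the methyltransferase DRM2, and SUVH2 and SUVH9 bind methylated DNA and recruit RNA polymerase V. POL2A is the catalytic subunit of DNA polymerase epsilon, which copies the leading strand and is known to contribute to gene silencing in Arabidopsis.

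The study crossed 5 genotypes with 2 tissues, with 2 libraries per group. The genotypes were pol2a-1, pol2a-2, the double mutant suvh2suvh9, the triple mutant pol2a-1suvh2suvh9 and wild type (WT). The meiocytes, cells about to undergo meiosis, were taken from buds of stages 9 to 10 in pools of 300 to 400 masses, and whole seedlings 20 days old were pooled in groups of 4 to 5. Plants grew at 20 °C with 16 h of light. Titles decided the group: the pol2a-2 titles stand beside a genotype field that reads pol2a-1. The triple mutant titles name pol2a with no allele, so its pol2a-1 rests on that genotype field alone. Each p-value below rests on the spread between the 2 pools of a group. That spread was estimated over all groups fitted together, so groups not compared also enter it.

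In units of 1e+06 counts, library totals ranged from 11.9 to 20.9 in meiocytes and from 11.9 to 34.5 in seedlings. The tissue labels were checked with marker genes. Summed levels of 6 meiosis genes ran from 2690 to 3290 CPM in meiocytes. They were at 40.2 and 37.6 CPM in pol2a-2 seedlings and at 10.4 to 21.6 CPM in the other seedlings. Those of 5 photosynthesis genes ran from 168 to 882 CPM in meiocytes and from 32900 to 48200 CPM in seedlings. Summed levels of 8 genes of the tapetum, the cell layer around meiocytes, ran from 86.2 to 289 CPM in meiocytes and from 3.85 to 9.63 CPM in seedlings other than pol2a-1 replicate 2, which stood apart at 29.8 CPM. SUVH9 stood at 0.051 and 0 CPM in suvh2suvh9 meiocytes, 0 and 0.059 CPM in triple mutant meiocytes and 13.4 and 6.54 CPM in WT meiocytes. SUVH2 was called lower in triple mutant meiocytes, a call lost in 3 of 17 alternatives. It was not called in suvh2suvh9 meiocytes, where its log2 fold change ran from -1.77 to -1.37 over the alternatives. POL2A had 65.6 and 67.7 CPM in triple mutant meiocytes and 89.8 and 89.5 CPM in pol2a-1 meiocytes, against 236 and 165 CPM in WT meiocytes, and was called lower in both (log2 fold change -1.71 and -1.14, adjusted p 0.00639 and 0.0176, edgeR). The call was lost in 3 of 17 alternatives for the triple mutant and in 4 of 16 for pol2a-1. POL2A was not called in pol2a-2 meiocytes (log2 fold change -0.44, adjusted p 0.461, edgeR) or in seedlings of the triple mutant, pol2a-1 or pol2a-2 (log2 fold change -0.2, -0.58 and 0.04, adjusted p 0.677, 0.328 and 0.947, edgeR).

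Groups of libraries stood apart in the counts of repeated sequence. Genes whose exons were repeated over 50% or more of their length were used as a gauge. Of 182 such genes tested in meiocytes, each pol2a-1 library had 5 at 0, each pol2a-2 library 1 to 2, each suvh2suvh9 library 57 to 64, each triple mutant library 56 to 62 and each WT library 55 to 56. Of 141 tested in seedlings, the pol2a-1 libraries had 36 to 37 at 0, the pol2a-2 libraries 32 to 38, the suvh2suvh9 libraries 1, the triple mutant libraries 0 to 1 and the WT libraries 30 to 33. Chloroplast genes took 0.0215% to 0.0443% of the counts in suvh2suvh9 and triple mutant seedlings and 2.11% to 2.42% in the other seedlings. The groups alike in this within a tissue are called a library set here, and the sources used here do not say how the sets came about. Long TEs as a class hold repeated sequence, so for them genotype and library set cannot be told apart in comparisons of pol2a-1 or pol2a-2 with WT in meiocytes and of suvh2suvh9 or the triple mutant with WT in seedlings. The triple mutant against suvh2suvh9 and pol2a-2 against pol2a-1 stay within 1 set in both tissues. The same holds for suvh2suvh9 and the triple mutant against WT in meiocytes and for pol2a-1 and pol2a-2 against WT in seedlings.

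Most long TEs were silent or nearly so. No library held a count for 800 of the 2455, 517 had counts in 1 library only, 54 had counts in all 20, and 87 averaged at least 1 CPM. Counts occurred in seedlings and in no meiocyte library for 1208 members, and in meiocytes and no seedling library for 78. The summed long TE level of meiocytes was 1070 ± 38.9 CPM for pol2a-1, 1120 ± 200 for pol2a-2, 1160 ± 124 for suvh2suvh9, 1200 ± 77.1 for the triple mutant and 1160 ± 139 for WT (mean ± SD, n = 2 each). That of seedlings was 600 ± 79.7 CPM for pol2a-1, 724 ± 248 for pol2a-2, 740 ± 51.8 for suvh2suvh9, 816 ± 65.4 for the triple mutant and 786 ± 58 for WT (mean ± SD, n = 2 each). The ranges of mutant and WT libraries overlapped except in pol2a-1 seedlings (656.5 and 543.8 CPM, against 826.5 and 744.5 CPM in WT). In these bulk samples fewer cells with a transcript and less transcript per cell cannot be told apart.

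A few members carried much of that sum. Per kilobase of length, the 10 highest over the 20 libraries were AT1TE98440, AT5TE17325, AT3TE09220, AT3TE63765, AT3TE63065, AT4TE74240, AT3TE20930, AT1TE86305, AT2TE23870 and AT5TE19520, from 17.5 down to 6.59 CPM per kilobase. That order pools the tissues: AT5TE17325 and AT4TE74240 had medians of 23 and 18.4 CPM per kilobase over the meiocyte libraries and of 0.193 and 0.141 CPM per kilobase over the seedling libraries. The top member of each chromosome was among them. AT1TE98440 (3427 bases) lay between 52.9 and 115 CPM in the meiocyte libraries and between 14.2 and 54.6 CPM in the seedling libraries, and its mutant and WT ranges overlapped in seedlings of suvh2suvh9 and the triple mutant. In the other seedlings it was at 27.7 and 17.8 CPM (pol2a-1) and 14.2 and 41.7 CPM (pol2a-2), all below the 44.6 and 42.6 CPM of WT. AT3TE63765 (4967 bases) was even across genotypes, at 20.1 to 26.5 CPM in every seedling library and 70.8 to 132 CPM in every meiocyte library. The longest element, AT1TE51040, was at 0.253 and 0.479 CPM in triple mutant seedlings and 0.0683 CPM in 1 pol2a-2 seedling library, and at 0 elsewhere.

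The number of long TEs with any count separated the genotypes more than the sum did. To remove depth, the number expected with at least 1 count was computed for every library at 11906055 counts, the total of the shallowest one. In triple mutant seedlings it was 548 and 571.6, against 267.6 and 251.8 in suvh2suvh9 seedlings, which share the library set, and 479.6 and 352.3 in WT seedlings. In pol2a-1 seedlings it was 424.2 and 377, and in pol2a-2 seedlings 458 and 477.9. Both triple mutant libraries stood above every other seedling library and both suvh2suvh9 libraries below every other. In meiocytes the number was 199.9 and 182.2 in the triple mutant, again above every other library, and WT had 139.7 and 141.3. The other mutants lay between or below, at 157.8 and 172.4 (pol2a-1), 171 and 152.6 (pol2a-2) and 159.3 and 126.5 (suvh2suvh9). Other features were high there too. Nuclear genes detected at that depth numbered 21491 and 21139 in triple mutant meiocytes, against 19414 and 19606 in WT and at most 20890 in any other meiocyte library. The 5 photosynthesis genes summed to 882 and 456 CPM in triple mutant meiocytes, against 357 and 168 CPM in WT, and their part in the result was not tested. In seedlings the gene numbers overlapped, at 21883 and 21717 in the triple mutant, 21419 and 21596 in suvh2suvh9 and 21766 and 21435 in WT. Among the 725 members of 5000 bases or more, 39.9% and 43.6% were detected in triple mutant seedlings, 15.9% and 14.5% in suvh2suvh9 seedlings and 28.4% and 19.7% in WT seedlings at that depth. For TEs of 500 to under 2000 bases the order differed, with 753 ± 13.6 detected in triple mutant seedlings, 648 ± 16.4 in suvh2suvh9 and 816 ± 51.2 in WT (mean ± SD, n = 2 each).

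**Figure D1:**
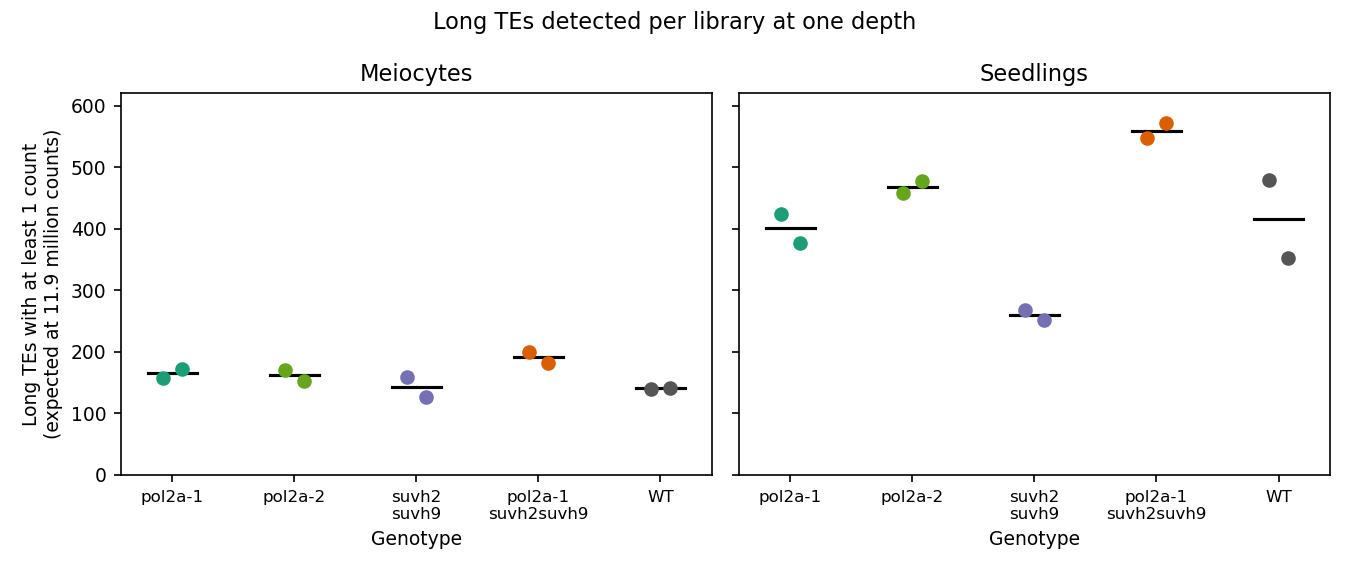
Number of long TEs expected with at least 1 count at 11906055 counts (vertical axis) per library in meiocytes (left) and seedlings (right), by genotype. Points are libraries and lines the means of 2; triple mutant seedlings sit at 548 and 571.6 and suvh2suvh9 seedlings at 267.6 and 251.8.

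Set against suvh2suvh9 seedlings, triple mutant seedlings had more members above than below, while the summed level overlapped (770 and 862.5 CPM, against 777.1 and 703.9 CPM). Over all 2455 members, with no filter on low values, 354 (14.4%) were higher in both triple mutant libraries than in both suvh2suvh9 libraries, and 63 (2.57%) were lower in both. Among all 58844 features these shares were 11% and 11.3%. The higher share was 31.9% of the 725 members of 5000 bases or more, 10.1% of the 784 of 3000 to under 5000 bases and 4.65% of the 946 of under 3000 bases. The lower share was 2.76%, 2.81% and 2.22% in that order. A member was called where edgeR's two-sided quasi-likelihood test gave an adjusted p under 0.05 over all features tested. Of 206 tested members 39 passed the filter on low counts with both triple mutant libraries alone and 7 with both suvh2suvh9 libraries alone. Counts among those tested were thus tilted toward higher in advance. Of the 206, 4 were called higher (background 0.193% of features) and none lower (background 0.0538%). At unadjusted p under 0.05 (edgeR) 70 were higher and 4 lower, and by DESeq2 31 and 0 were called. The 4 called by edgeR had 5432 to 21052 bases, on chromosomes 1, 3, 4 and 5. Of the 202 tested members not called 105 (52%) had 5000 bases or more.

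AT5TE42470 (21052 bases) had 3.03 and 2.87 CPM in triple mutant seedlings, against 0.0734 and 0 CPM in suvh2suvh9 seedlings. That is a 79.8-fold difference, with counting error alone allowing 21.7 to 665 at 95% (adjusted p 0.0248, edgeR). AT3TE63540 had 4.73 and 3.74 CPM in the triple mutant, against 0.147 and 0.15 CPM in suvh2suvh9 (log2 fold change 4.81 ± 0.65 SE, adjusted p 0.0282, edgeR). AT1TE51735 had 1.55 and 1.74 CPM in the triple mutant, against 0 in both suvh2suvh9 libraries, at least 29.4-fold higher (adjusted p 0.0496, edgeR). AT4TE19150 had 0.794 and 0.653 CPM in the triple mutant, against 0 in both suvh2suvh9 libraries, at least 13.1-fold higher (adjusted p 0.0496, edgeR). None of the 4 overlapped between the groups, but they were called by these same values, so this adds no support. In the other seedlings AT3TE63540 was at 1.06 and 0.168 CPM in pol2a-1 seedlings, at 1.64 and 1.02 CPM in those of pol2a-2 and at 0.261 and 0.224 CPM in those of WT. The 4 calls depended on the libraries fitted. The count was 0 when either WT library, either triple mutant library or suvh2suvh9 replicate 2 was left out, and 1 without suvh2suvh9 replicate 1. It was 2 without either pol2a-1 library, 11 without pol2a-2 replicate 1 and 10 without pol2a-2 replicate 2. With the 2 groups alone, or with a replicate block, it was 8 and 1.

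Against WT, triple mutant seedlings had 63 of the 206 tested members called higher and 9 lower, 30.6% and 4.37%, against a background of 7.21% and 6.08% of features. Of these 206 members 39 passed the filter on low counts through the triple mutant alone, so the share among those tested, and its split by length below, is not that of long TEs at large. Over all 2455 members 375 (15.3%) were higher and 135 (5.5%) lower in both triple mutant libraries than in both WT libraries, with 14.3% and 14.4% among all features. By length, with no filter, the higher share was 31.2% of the members of 5000 bases or more, 11.5% of those of 3000 to under 5000 bases and 6.24% of those of under 3000 bases. The lower share was 7.45%, 4.97% and 4.44% in that order. At 11906055 counts WT seedlings detected 28.4% and 19.7% of the members of 5000 bases or more. They detected 12.4% and 10.4% of those of under 3000 bases, and the part of detection in these shares was not tested. Of the 63 higher members 49 had 5000 bases or more, out of 109 tested of that length. Another 11 of 58 had 3000 to under 5000 bases and 3 of 39 had under 3000 bases. The median length of the 63 was 8212 bases, and that of the 134 tested members not called was 4794 bases. They lay on every chromosome: 11 of 36 tested on chromosome 1, 7 of 37 on chromosome 2, 12 of 50 on chromosome 3, 18 of 37 on chromosome 4 and 15 of 46 on chromosome 5.

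**Figure D2:**
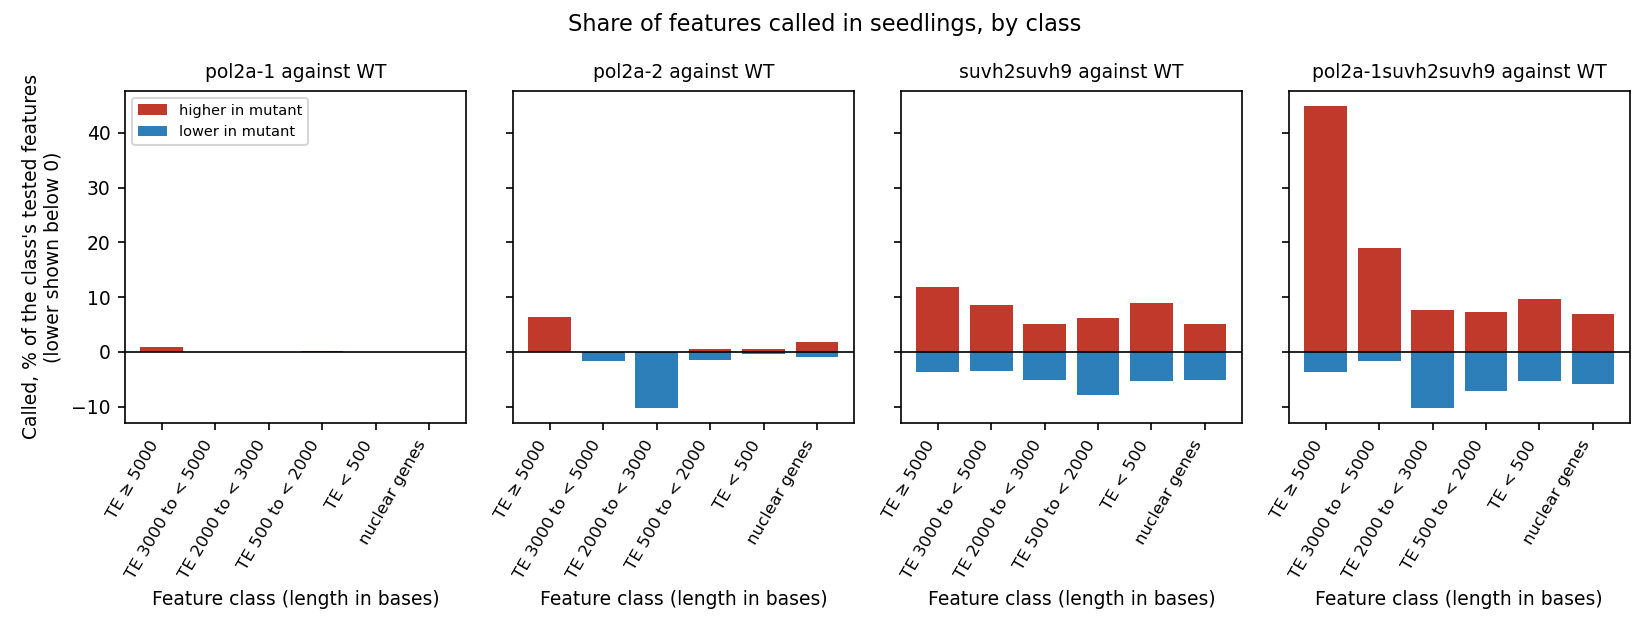
Percent of tested features called higher (above 0) or lower (below 0) in seedlings of each mutant against WT, for TEs by length, and nuclear genes. In the triple mutant 49 of 109 tested TEs of 5000 bases or more were called higher, against 3 of 39 long TEs of under 3000 bases; 39 of the 206 long TEs tested passed the filter through the triple mutant alone.

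The mean of the 63 in triple mutant seedlings ran from 0.268 to 8.7 CPM with a median of 1.13 CPM, and 41 reached 1 CPM. WT seedlings had 0 counts in both libraries for 23 of them and 1 to 3 counts for 22. Their summed level was 92.7 and 103 CPM in triple mutant seedlings. The suvh2suvh9 libraries had 45 and 37.3 CPM, the pol2a-1 libraries 25 and 7.56 CPM, the pol2a-2 libraries 26.4 and 36.1 CPM and the WT libraries 5.2 and 5.89 CPM. The triple mutant and WT values are those by which the 63 were called. In meiocytes, which played no part in that call, each library had 50 to 55 of the 63 at 0, and their sum was 121 and 133 CPM in the triple mutant, 217 and 215 CPM in pol2a-1 and 127 and 137 CPM in WT. Nearly all of it was AT5TE17325 and AT4TE74240, which stood low in seedlings and together had 113 and 122 CPM in triple mutant meiocytes, 214 and 211 CPM in pol2a-1 meiocytes and 125 and 135 CPM in WT meiocytes. The other 61 summed to 7.89 and 11.3 CPM in triple mutant meiocytes, 3.27 and 3.58 CPM in pol2a-1 meiocytes and 2.79 and 2.72 CPM in WT meiocytes.

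AT5TE42135 (11347 bases) had 2.38 and 2.83 CPM in triple mutant seedlings, against 0 in both WT libraries, at least 52.8-fold higher (adjusted p 0.00915, edgeR). It stood at 0.22 and 0.0375 CPM in suvh2suvh9 and at 0 in both pol2a-1 libraries. AT4TE17470 (8212 bases) had 1.73 and 2.35 CPM in the triple mutant, against 0 in WT, at least 41.1-fold higher (adjusted p 0.00416, edgeR). AT1TE49850, AT5TE42710, AT2TE24385, AT5TE34040 and AT5TE41865, the next by size, were at least 21.8- to 32.6-fold higher than in WT, which had 0 counts for each. The 63 were called by their high triple mutant values, which tilts their order against suvh2suvh9 in advance. Among all 58844 features 11% were higher and 11.3% lower in both triple mutant libraries than in both suvh2suvh9 libraries. Of the 63, 49 were higher, 9 overlapped and 5 were lower. AT5TE34040 was among those that overlapped, at 0.469 and 1.79 CPM in the triple mutant and 1.32 and 0.337 CPM in suvh2suvh9. AT4TE20120 (6486 bases) had 2.27 and 2.09 CPM in the triple mutant and 3.12 and 1.95 CPM in suvh2suvh9, against 0 in both WT libraries. AT2TE07550 was lower in the triple mutant than in suvh2suvh9, at 1.15 and 1.22 CPM in the triple mutant, against 2.46 and 1.87 CPM in suvh2suvh9 and 0 in WT.

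The comparison of the triple mutant with WT crosses the library sets and rests on 2 libraries a group. The higher count was 13 when WT replicate 1 was left out, 20 for WT replicate 2, 16 for triple mutant replicate 1 and 18 for triple mutant replicate 2, and the lower count was 2 without WT replicate 1 or either triple mutant library and 5 without pol2a-1 replicate 1. Under a replicate block 5 members were lower.

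**Figure D3:**
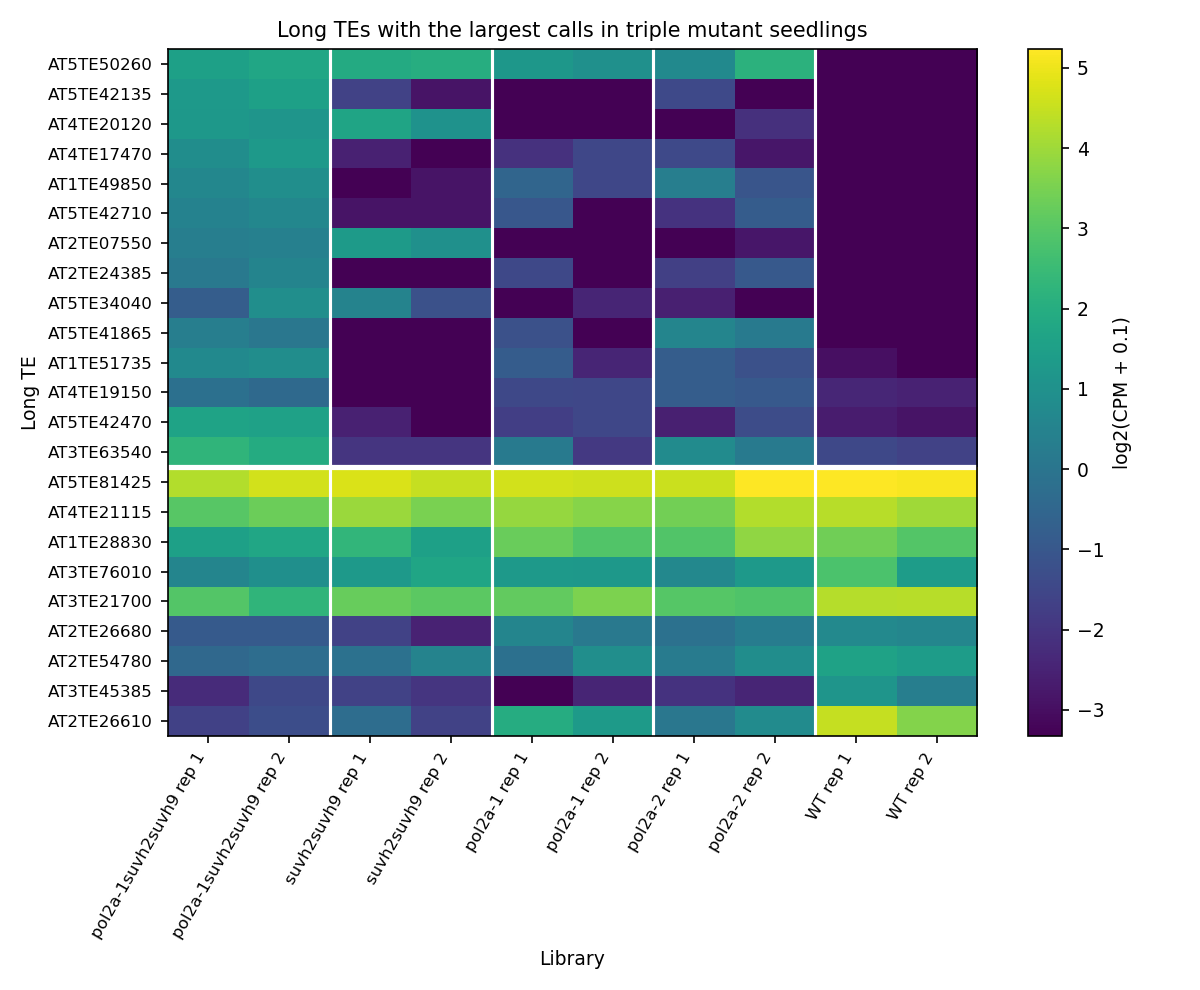
log2(CPM + 0.1) of the long TEs with the largest calls in triple mutant seedlings, one row each, over the 10 seedling libraries. Above the white line are 14 members higher in the triple mutant, dark in both WT columns; below it are 9 members lower in the triple mutant than in WT.

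In suvh2suvh9 seedlings 20 of 206 tested members were called higher than in WT and 8 lower, 9.71% and 3.88%, against a background of 5.4% and 5.49%. Over all members 106 (4.32%) were higher and 159 (6.48%) lower in both libraries, with 13.3% and 13.6% among all features. The filter on low counts was passed by 7 of the 206 with both suvh2suvh9 libraries alone. Of the 20, 13 (65%) had 5000 bases or more, against 92 (51.7%) of the 178 tested members not called. AT5TE50260 (5256 bases) had 3.67 and 3.9 CPM, against 0 in both WT libraries, at least 77.2-fold higher (adjusted p 0.000432, edgeR). AT1TE72060 (4814 bases) had 8.4 and 7.68 CPM, against 0.0871 and 0.373 CPM in WT (log2 fold change 5.19 ± 0.68 SE, adjusted p 0.00172, edgeR). It had 6.17 and 11.2 CPM in triple mutant seedlings and at most 0.332 CPM in pol2a-1 and pol2a-2 seedlings. In meiocytes it had 1.05 and 1.71 CPM in pol2a-1 and 0.754 and 1.32 CPM in pol2a-2. It was at 0 in every meiocyte library of WT, suvh2suvh9 and the triple mutant. AT5TE47750 had 2.9 and 2.14 CPM in suvh2suvh9, against 0.029 and 0 CPM in WT, 154-fold (95% counting limits 27.3 and 6150, adjusted p 0.00045, edgeR). Of the 20, 8 had a mean of under 1 CPM in suvh2suvh9 seedlings, among them AT3TE51930, AT3TE40530, AT1TE71045 and AT1TE38530. The library sets differ here too. The higher count fell to 7 without either WT library or suvh2suvh9 replicate 1, to 8 without suvh2suvh9 replicate 2, to 12 without triple mutant replicate 1 and to 11 without triple mutant replicate 2. The lower count was 2 when WT replicate 1 was left out, 4 for WT replicate 2, 5 for suvh2suvh9 replicate 1, 1 for suvh2suvh9 replicate 2 and 5 for either triple mutant library.

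The pol2a alleles share the library set of WT in seedlings. The marker sums that stood apart, the meiosis genes in both pol2a-2 libraries and the tapetum genes in pol2a-1 replicate 2, belong to these groups, and their part in the calls was not tested. In pol2a-2 seedlings 7 tested members were called higher (3.4%, background 1.69%) and 5 lower (2.43%, background 0.937%). Each of the 7 had 5256 bases or more, and none of the 5 lower ones reached 5000 bases. Of the 194 tested members not called 102 (52.6%) had 5000 bases or more. The filter on low counts was passed by 4 of the 206 with both pol2a-2 libraries alone. AT5TE50260 had 1.57 and 4.4 CPM in pol2a-2, against 0 in both WT libraries, at least 67.8-fold higher (adjusted p 0.00276, edgeR). AT2TE15880 (8957 bases) had 1.57 and 3.68 CPM, against 0 and 0.0746 CPM in WT, 88.1-fold (95% counting limits 23.8 and 736, adjusted p 0.02, edgeR). AT5TE41865, AT5TE43260, AT1TE49850 and AT4TE16900 were called higher at 0.381 to 1.37 CPM per pol2a-2 library, with the lowest fold for AT4TE16900 (log2 fold change 3.14 ± 0.71 SE). The exception in level was AT2TE12510, at 74.3 and 70.1 CPM in pol2a-2, against 33.3 and 41.6 CPM in WT (log2 fold change 0.87 ± 0.17 SE, adjusted p 0.0333, edgeR). The higher count was 1 without either WT library, 2 without either triple mutant library and 13 without pol2a-2 replicate 2. It was 2 with a replicate block or with the groups of the library set alone, and 0 with the 2 groups alone. The lower count was 0 and 1 without WT replicates 1 and 2, 23 without pol2a-2 replicate 2, and 3 without any of the suvh2suvh9 and triple mutant libraries, with a replicate block or with the groups of the library set alone.

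In pol2a-1 seedlings 1 member was called higher (0.485%, background 0.0224%) and none lower (background 0.00448%), with 29 and 22 at unadjusted p under 0.05 and 1 and 1 by DESeq2. It was AT5TE50260, at 2.19 and 1.85 CPM, against 0 in both WT libraries, at least 41.6-fold higher (adjusted p 0.0497, edgeR). It was not called with a replicate block, nor without any one of the WT, pol2a-1, suvh2suvh9 or triple mutant libraries, and the lower count was 10 without either pol2a-2 library, which left 4 higher. AT5TE50260 was also called in the triple mutant, at 2.81 and 3.27 CPM (at least 61.7-fold higher than in WT, adjusted p 0.000582, edgeR). All 4 comparisons share the same 2 WT libraries. In WT meiocytes the element had 0 and 1.29 CPM, so it was not at 0 in WT everywhere. Between pol2a-2 and pol2a-1 seedlings no member was called (background 0.233% higher and 0.152% lower), with 13 higher and 9 lower at unadjusted p under 0.05 and 2 and 1 by DESeq2. Without pol2a-2 replicate 1 the count was 6 higher.

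Fewer members were called lower than higher in seedlings of each mutant, in pol2a-1 by only 0 to 1. That order turned under several alternatives for the pol2a alleles, for example in pol2a-2 without pol2a-2 replicate 2 (13 higher and 23 lower) and in pol2a-1 without either pol2a-2 library (4 and 10). With no filter more members were lower than higher in both libraries in suvh2suvh9 (159 and 106) and in pol2a-1 (134 and 72). Among all 58844 features 8022 were lower and 7854 higher in suvh2suvh9, and 7001 and 5893 in pol2a-1. Triple mutant and pol2a-2 seedlings had fewer members lower than higher (135 and 375, and 116 and 138). The features lower and higher there were 8502 and 8390 in the triple mutant and 4943 and 7675 in pol2a-2. AT2TE26610 (2068 bases) had 0.216 and 0.305 CPM in the triple mutant, 0.734 and 0.225 CPM in suvh2suvh9, 0.956 and 1.65 CPM in pol2a-2 and 3.85 and 2.44 CPM in pol2a-1, against 22.2 and 12.3 CPM in WT. No mutant library reached the lower WT library. Its log2 fold change was -6.01 ± 0.54 SE in the triple mutant, -5.14 ± 0.5 SE in suvh2suvh9 and -3.76 ± 0.45 SE in pol2a-2 (adjusted p 0.00017, 0.000278 and 0.00369, edgeR). AT3TE21700 had 7.51 and 4.79 CPM in the triple mutant, 9.47 and 8.39 CPM in suvh2suvh9 and 7.71 and 7.24 CPM in pol2a-2, against 19.4 and 20 CPM in WT, and was called in all 3. AT3TE45385 was also called in these 3 mutants, at 0.0847 to 0.261 CPM per library, against 2.12 and 1.16 CPM in WT. AT2TE26680 and AT1TE28830 were called lower in the triple mutant and in suvh2suvh9. AT5TE81425, AT4TE21115, AT3TE76010 and AT2TE54780 were called lower in the triple mutant with log2 fold changes from -0.71 to -1.96.

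Meiocytes gave few calls. In pol2a-1 meiocytes 3 of 115 tested members were called higher (2.61%, background 0.434%) and 5 lower (4.35%, background 0.212%). Of the 115, 5 passed the filter on low counts with both pol2a-1 libraries alone, AT2TE20835 and AT3TE94580 among them. The higher share is therefore not that of long TEs at large. Over all 2455 members 44 (1.79%) were higher and 32 (1.3%) lower in both pol2a-1 libraries than in both WT libraries. Among all 58844 features 5815 were higher and 4604 lower. AT2TE20835 (4606 bases) had 75.4 and 70.7 CPM in pol2a-1 meiocytes and 0 in each of the other 18 libraries, seedlings included. Against WT meiocytes it was at least 921-fold higher (adjusted p 4.27e-05, edgeR). AT3TE94580 had 10.9 and 8.7 CPM in pol2a-1 meiocytes, against 0.0593 and 0 CPM in WT meiocytes, 371-fold (95% counting limits 66.1 and 14700, adjusted p 0.00542, edgeR). AT5TE17325 had 128 CPM in both pol2a-1 libraries, against 62.7 and 70.2 CPM in WT (log2 fold change 0.95 ± 0.19 SE, adjusted p 0.0395, edgeR), and 108 and 87.1 CPM in pol2a-2. Its call was lost in 7 of 16 alternatives, among them the replicate block, the 2 groups alone and either pol2a-1 library left out, with adjusted p up to 0.451 (edgeR).

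The other 5 called members of pol2a-1 meiocytes were lower, and 3 of them carry identifiers of chromosome 2. AT2TE20870 (4572 bases) had 1.55 and 0 CPM, against 78.6 and 36.1 CPM in WT meiocytes (log2 fold change -6.16 ± 0.77 SE, adjusted p 0.00129, edgeR). AT2TE23870 (4706 bases) had 1.33 and 0.716 CPM, against 58.1 and 30.9 CPM in WT (log2 fold change -5.41 ± 0.43 SE, adjusted p 4.16e-05, edgeR). AT2TE12510 (5614 bases) had 1.05 and 0 CPM, against 17 and 13.6 CPM in WT (log2 fold change -4.82 ± 0.74 SE, adjusted p 0.0073, edgeR). None of these 3 was as low in triple mutant meiocytes, whose genotype field names pol2a-1 too. AT2TE20870 had 33.5 and 42.2 CPM there, and AT2TE23870 had 29.8 and 26 CPM in pol2a-1 seedlings. AT1TE78470 and AT1TE22850 were the other lower ones, at 0 and 0.165 CPM (against 1.78 and 2.39 CPM in WT) and 11.1 and 11.3 CPM (against 44.7 and 39.4 CPM in WT). The library sets differ between pol2a-1 and WT meiocytes. The higher count was 1 without pol2a-1 replicate 1, and the lower count was 3 without either WT library, pol2a-1 replicate 1 or triple mutant replicate 2.

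**Figure D4:**
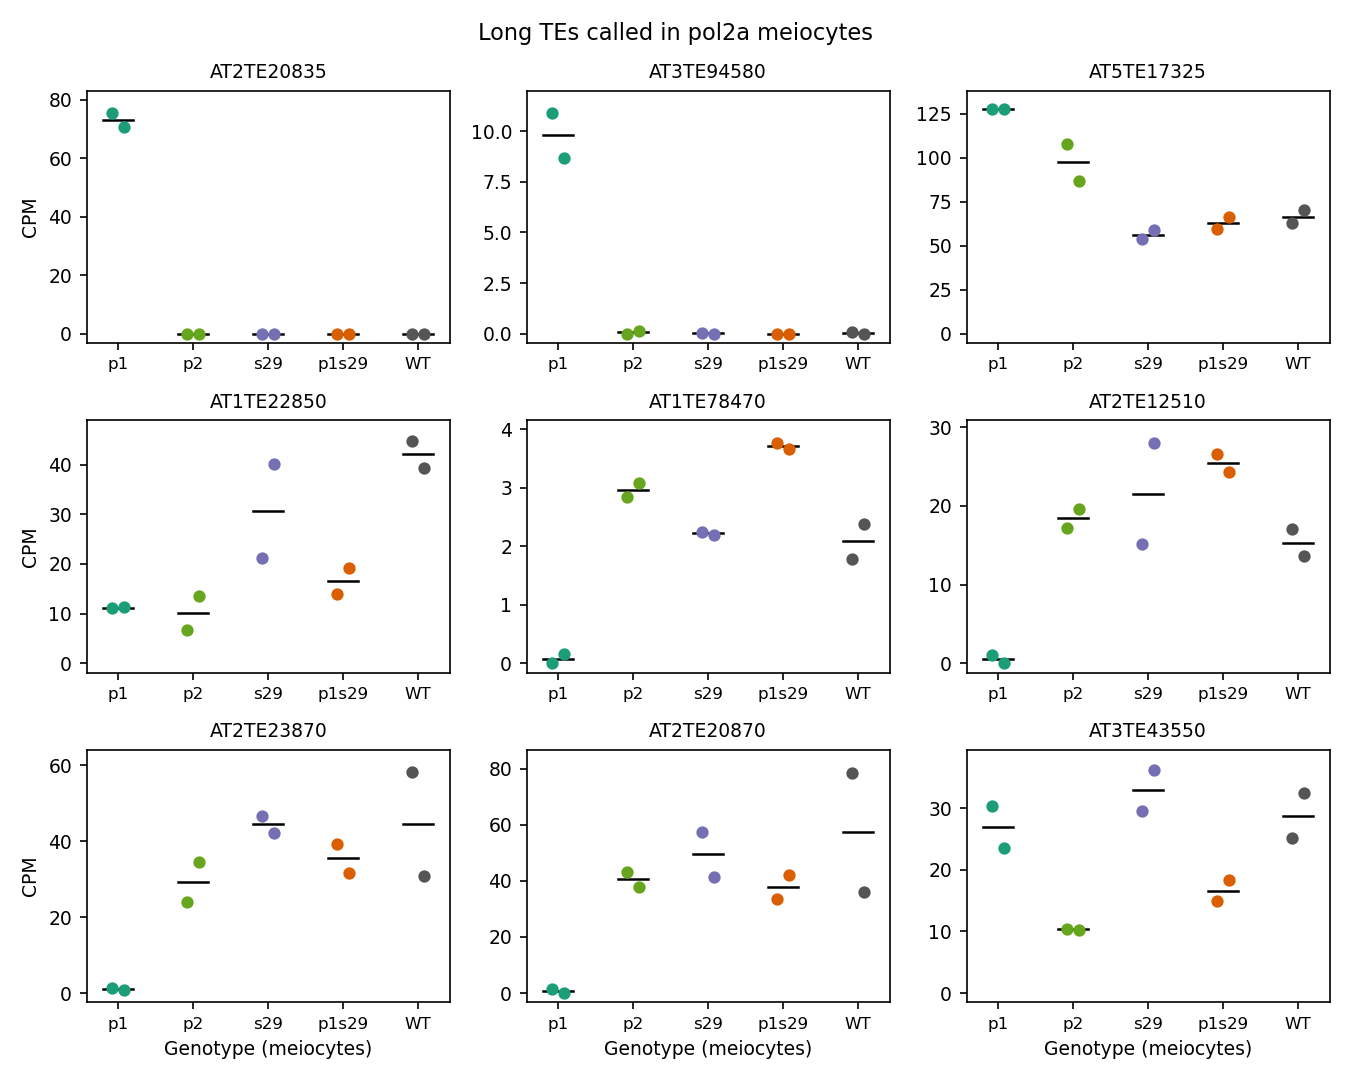
CPM in meiocytes of the 9 long TEs called in pol2a-1 or pol2a-2 against WT, by genotype (p1, pol2a-1; p2, pol2a-2; s29, suvh2suvh9; p1s29, triple mutant). Points are libraries and lines the means of 2; AT2TE20835 is at 75.4 and 70.7 CPM in pol2a-1 and at 0 in the other groups.

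Within 1 library set, pol2a-2 meiocytes differed from pol2a-1 meiocytes in 4 members called higher (3.48%, background 0.358%) and 3 lower (2.61%, background 0.156%). Those higher were AT2TE20870 (43.2 and 37.9 CPM in pol2a-2, against 1.55 and 0 CPM in pol2a-1), AT2TE23870, AT2TE12510 and AT1TE78470. AT2TE23870 had 23.9 and 34.5 CPM in pol2a-2, against 1.33 and 0.716 CPM in pol2a-1 (log2 fold change 4.74 ± 0.42 SE, adjusted p 0.000292, edgeR). AT2TE20835 was at 0 in both pol2a-2 libraries, at least 622-fold lower than in pol2a-1 (adjusted p 0.000292, edgeR), and AT3TE94580 and AT3TE43550 were also lower. AT2TE20835 and AT3TE94580 passed the filter on low counts with the pol2a-1 libraries alone. The higher count was 7 without pol2a-2 replicate 2 and 1 with the 2 groups alone, and the lower count was 1 without either pol2a-1 library. Against WT, pol2a-2 meiocytes had no member called higher (background 0.556%; 8 at unadjusted p under 0.05, 1 by DESeq2) and 2 lower (1.74%, background 0.0896%). AT3TE43550 had 10.4 and 10.3 CPM in pol2a-2, against 25.1 and 32.5 CPM in WT (log2 fold change -1.56 ± 0.27 SE, adjusted p 0.019, edgeR). AT1TE22850 had 6.79 and 13.6 CPM in pol2a-2, against 44.7 and 39.4 CPM in WT (log2 fold change -2.11 ± 0.38 SE, adjusted p 0.0241, edgeR). Without WT replicate 2 neither was called, without WT replicate 1 or pol2a-2 replicate 2 there was 1, and with the 2 groups alone there were 0.

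In suvh2suvh9 meiocytes no member was called against WT (background 0% higher and 0.00471% lower), with 5 higher and 5 lower at unadjusted p under 0.05 and 0 and 0 by DESeq2. In triple mutant meiocytes no member was called against WT (background 0.0424% and 0.0189%), with 15 higher and 5 lower at unadjusted p under 0.05 and 2 and 2 by DESeq2, and without WT replicate 2 there was 1 lower. The same held against suvh2suvh9 (background 0.0283% and 0.00943%), with 13 higher and 4 lower at unadjusted p under 0.05 and 2 and 1 by DESeq2. Without a filter, 78 of the 2455 members (3.18%) were higher in both triple mutant meiocyte libraries than in both WT libraries and 15 (0.611%) lower, with 14.5% and 5.54% among all features.

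WT meiocytes and WT seedlings overlapped in part in the long TEs that had counts. Counts occurred in both tissues for 146 members, in WT meiocytes only for 48, in WT seedlings only for 740 and in neither for 1521, or 5.95%, 1.96%, 30.1% and 62% of members. Among all features the shares were 36.6%, 3.45%, 12.3% and 47.6%. The WT seedling libraries were the deeper ones, and at a level of 1 CPM or more in both libraries of a tissue the members numbered 60 in meiocytes, 67 in seedlings and 40 in both. Of 208 tested members 46 were called higher in meiocytes and 50 lower, 22.1% and 24%, against a background of 35.2% and 41.7% of features. Members of 5000 bases or more were called higher in meiocytes in 10 of 99 cases and lower in 23, and those of under 3000 bases in 15 and 12 of 44. AT4TE74240 (3344 bases) had 62 and 64.4 CPM in WT meiocytes, against 0.319 and 0.336 CPM in WT seedlings (log2 fold change 7.26 ± 0.39 SE, adjusted p 9.06e-11, edgeR). AT3TE62965 had 8.06 and 4.01 CPM in WT meiocytes, against 0 in both WT seedling libraries, at least 119-fold higher (adjusted p 2.23e-06, edgeR). AT4TE10320 (5336 bases) was at 0 in both WT meiocyte libraries, against 35 and 30.8 CPM in WT seedlings, at least 418-fold lower (adjusted p 7.77e-08, edgeR). AT4TE42860 had 0 and 0.0478 CPM in WT meiocytes, against 85.6 and 68.1 CPM in WT seedlings, 2950-fold lower (95% counting limits 529 and 116000, adjusted p 4.62e-07, edgeR). AT3TE21700 and AT2TE26610, lower in mutant seedlings, were at 0 in both WT meiocyte libraries and in the mutant meiocytes. The median of all features tested lay at -0.25 (log2) under TMM scaling, and DESeq2 size factors and unscaled totals moved it by -0.14 and 0.31. The calls are relative to that.

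**Figure D5:**
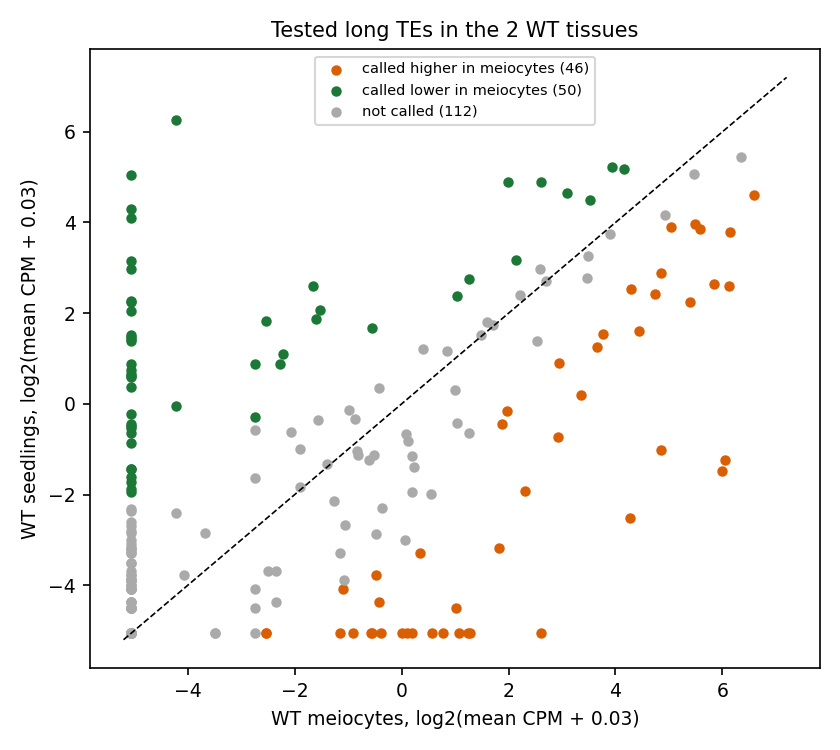
Mean CPM of the 208 tested long TEs in WT meiocytes (horizontal) and WT seedlings (vertical), both as log2(CPM + 0.03), with the line of equality dashed. The 46 called higher in meiocytes lie below the line and the 50 called lower lie above it, many of them at 0 in meiocytes.

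The machinery that silences TEs was read in 27 genes of DNA and histone methylation, RNA-directed DNA methylation and chromatin, all of them tested. In triple mutant seedlings 3 were called higher and 2 lower than in WT, among 7.21% and 6.08% of all features. AGO6, an Argonaute that binds small RNAs of RNA-directed DNA methylation, had 5.09 and 5.88 CPM, against 2.58 and 2.46 CPM in WT (log2 fold change 1.14, adjusted p 0.0343, edgeR). ATXR6, a histone H3 methyltransferase needed for heterochromatin silencing, had 2.96 and 2.74 CPM, against 1.25 and 1.19 CPM in WT (log2 fold change 1.24, adjusted p 0.0142, edgeR). MORC6, an ATPase of heterochromatin silencing, had 16.2 and 20.3 CPM, against 13 and 11.2 CPM in WT (log2 fold change 0.61, adjusted p 0.0404, edgeR). The lower ones were the mutated SUVH2 and SUVH9. ATXR6 was also called higher in pol2a-2 seedlings, at 3.35 and 3.47 CPM, against 1.25 and 1.19 CPM in WT (log2 fold change 1.4, adjusted p 0.028, edgeR). In suvh2suvh9 seedlings the called genes were SUVH2, SUVH9 and ROS1, a DNA demethylase gene, each lower. ROS1 had 6.5 and 1.57 CPM, against 38.4 and 34.6 CPM in WT (log2 fold change -3.16, adjusted p 0.0238, edgeR). In WT meiocytes 17 of the 27 were called higher and 3 lower than in WT seedlings, among 35.2% and 41.7% of all features.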

How the data were processed

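RNA libraries were made with a TruSeq RNA kit, per the labels' protocols, a kit known to keep no strand. The authors deposited raw counts per gene and TE with lengths. The submitters' processing notes name cutadapt 3.4, STAR 2.7.9a, featureCounts 2.0.0, DESeq2 1.30.1 and TAIR10. How reads with several hits were counted is not stated, and TE reads that also fit other copies or an overlapping gene cannot be assigned apart. TE coordinates and sequences were not used here.

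The counts were tested with edgeR 4.0.16 in R 4.3.3. The 10 libraries of a tissue (20 for the tissue comparison) entered 1 fit after filterByExpr (minimum count 10, which kept 115 and 206 members in meiocytes and seedlings, 208 in the tissue comparison) and TMM scaling. The quasi-likelihood F test was two-sided, and p-values were adjusted by Benjamini-Hochberg over all tested features. SE stands for standard error of a log2 fold change, with n = 2 per group. A fold against a group at 0 is a lower bound that puts 3 counts over that group. Where a group had 1 to 3 counts the ratio carries exact 95% counting limits. Both cover counting error only. Expected detection at 11906055 counts assumes random draws from a library.

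The members and lists were chosen with earlier results of these data known. The rule named up to 10 called members per direction and comparison with both libraries beyond both of the other group, the 10 highest per kilobase, the top of each chromosome, the longest, members called in several comparisons and the targeted genes, and the text gives those with the most to show. Repeated sequence was measured over windows of 100 bases of gene exons in the reference TAIR10.1. Replicate numbers did not pair the libraries. Alternatives were DESeq2 size factors, no filter, DESeq2 1.42.0, fewer groups, organellar features left out, a replicate block and each library left out. The step was tested on simulated data.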

Additional observations from a re-analysis of the deposited data

Results flagged for a closer look

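For 11 combinations of a long TE and a genotype, the effect against WT differed between meiocytes and seedlings by an interaction term of edgeR fitted to the 20 libraries together (adjusted over 24418 features). Of all features 0.508% were called for pol2a-1, 1.02% for pol2a-2, 0.926% for suvh2suvh9 and 3.73% for the triple mutant. Each genotype shares the library set of WT in 1 tissue only, so tissue and library set cannot be told apart in these differences. The values are log2 effects in meiocytes minus those in seedlings. Where a group is at 0 the fitted value depends on the prior count and is no bound.

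In pol2a-1 the difference was -5.32 for AT2TE12510, -5.1 for AT2TE20870 and -5.01 for AT2TE23870 (adjusted p 0.0014, 0.0152 and 0.000155, edgeR). AT2TE12510 had 1.05 and 0 CPM in pol2a-1 meiocytes, against 17 and 13.6 CPM in WT meiocytes, and 52.3 and 63.1 CPM in pol2a-1 seedlings, against 33.3 and 41.6 CPM in WT seedlings.

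AT4TE10320 differed by 9.23 in pol2a-2 and 7.34 in the triple mutant (adjusted p 0.0138 and 0.0385, edgeR). It had 1.76 and 1.32 CPM in pol2a-2 meiocytes and 0.928 and 1.18 CPM in triple mutant meiocytes, against 0 in WT meiocytes. In seedlings it had 4.98 and 20.6 CPM in pol2a-2 and 27.5 and 28.6 CPM in the triple mutant, against 35 and 30.8 CPM in WT.

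In suvh2suvh9 the difference was -9.06 for AT2TE08225 and -8.98 for AT5TE50260 (adjusted p 0.0445 and 0.049, edgeR). AT2TE08225 had 0 CPM in suvh2suvh9 meiocytes, against 1.25 and 0.239 CPM in WT meiocytes, and 0.991 and 0.749 CPM in suvh2suvh9 seedlings, against 0.0871 and 0.261 CPM in WT seedlings.

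In the triple mutant AT5TE50260 also differed by -8.98 and AT5TE42470 by -10.2 (adjusted p 0.0232 and 0.046, edgeR). AT4TE74240 differed by -3.06 and AT5TE17325 by -2.73 (adjusted p 0.00203 and 0.00818, edgeR). AT4TE74240 had 53.6 and 55.4 CPM in triple mutant meiocytes, against 62 and 64.4 CPM in WT meiocytes, and 2.31 and 1.92 CPM in triple mutant seedlings, against 0.319 and 0.336 CPM in WT seedlings. AT5TE17325 had 2.38 and 1.87 CPM in triple mutant seedlings, against 0.232 and 0.559 CPM in WT seedlings.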

How the results depend on the processing

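Of counts of called members, organellar features left out moved none by over 1.5 times and DESeq2 size factors moved 2 (pol2a-1 seedlings, 0 higher; triple mutant against suvh2suvh9 seedlings, 2 higher). The cause was not tested for these or the values below. Depth limits how many members could be tested: at most 204 of the 2455 had 10 counts or more in any 1 library.

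Without the filter on low counts, pol2a-1 meiocytes had 5 higher against WT, pol2a-2 meiocytes 1 higher, suvh2suvh9 meiocytes 1 higher and 1 lower and triple mutant meiocytes 3 and 3. The triple mutant against suvh2suvh9 in meiocytes had 4 and 1, and pol2a-2 against pol2a-1 in meiocytes 9 higher. In seedlings against WT it gave 15 and 17 for pol2a-1, 28 and 11 for pol2a-2, 13 lower in suvh2suvh9 and 16 lower in the triple mutant. The triple mutant against suvh2suvh9 seedlings had 48 and 2, and pol2a-2 against pol2a-1 seedlings 8 and 3. DESeq2's Wald test gave 1 higher in pol2a-2 meiocytes, 2 and 2 in triple mutant meiocytes, 2 and 1 in triple mutant against suvh2suvh9 meiocytes and 8 higher in pol2a-2 against pol2a-1 meiocytes. In seedlings it gave 1 lower in pol2a-1, 15 higher in pol2a-2, 31 higher in the triple mutant against suvh2suvh9 and 2 and 1 in pol2a-2 against pol2a-1.

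With the 2 groups compared alone, pol2a-2 meiocytes had 0 lower, pol2a-2 against pol2a-1 meiocytes 1 higher, pol2a-1 seedlings 3 and 13, pol2a-2 seedlings 0 and 2, triple mutant seedlings 17 lower and the triple mutant against suvh2suvh9 seedlings 8 higher. With only groups of the same library set, the values were 1 higher in pol2a-2 against pol2a-1 meiocytes, 0 higher in pol2a-1 seedlings, 2 and 3 in pol2a-2 seedlings and 8 higher in the triple mutant against suvh2suvh9 seedlings. The replicate numbers did not pair the libraries (correlations of same-numbered deviations from -0.18 to 0.22). The replicate block gave 0 higher in pol2a-1 seedlings, 2 and 3 in pol2a-2 seedlings, 5 lower in the triple mutant and 1 higher in the triple mutant against suvh2suvh9, and moved no other count by over 1.5 times. Leaving out pol2a-1 seedling replicate 2 and pol2a-2 seedling replicate 1 together, chosen after seeing the data, gave 12 and 3 in pol2a-2, 96 and 16 in the triple mutant, 25 and 1 in the triple mutant against suvh2suvh9 and 2 higher in pol2a-2 against pol2a-1.

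With TMM-scaled library sizes the summed level was 1000 CPM in pol2a-1 meiocytes, 1010 in triple mutant meiocytes, 863 in suvh2suvh9 seedlings, 959 in triple mutant seedlings and 899 in WT seedlings. Leaving out 1 library each gave ranges, higher first. In meiocytes they were 1 to 3 and 3 to 5 in pol2a-1 and 0 to 2 lower in pol2a-2, 0 to 1 lower in the triple mutant and 3 to 7 and 1 to 3 in pol2a-2 against pol2a-1. In seedlings they were 0 to 4 and 0 to 10 for pol2a-1, 1 to 13 and 0 to 23 for pol2a-2, 7 to 23 and 1 to 10 in suvh2suvh9, 13 to 82 and 2 to 12 in the triple mutant, 0 to 11 higher in the triple mutant against suvh2suvh9 and 0 to 6 higher in pol2a-2 against pol2a-1. WT meiocytes against WT seedlings had 37 to 50 and 43 to 59. Between the WT tissues the log2 fold change of AT5TE50260 was 0 without WT meiocyte replicate 2 and up to 7.64 otherwise, and that of AT2TE07550 was 0 and up to 5.49. That of POL2A in pol2a-2 seedlings ran from -0.55 to 0.47 over the libraries left out.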
